A study of Mus musculus with 24 samples.

Results

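The genes described here encode antibodies or serve the cells that secrete them. Ighm and Ighd encode the constant regions of the IgM and IgD heavy chains, Igkc encodes the constant region of the kappa light chain, and Jchain encodes the protein that joins IgM and IgA into polymers. Mzb1 and Derl3 act in the endoplasmic reticulum of secreting cells, Xbp1 and Prdm1 encode transcription factors of the plasma cell program, and Sdc1 and Tnfrsf17 encode surface proteins used to mark plasma cells. The list named 10 genes, and 9 of them had values among the 16996 genes measured. Of these, 6 were found by symbol and 3 by identifier only, namely Ighm (ENSMUSG00000076617), Ighd (ENSMUSG00000104213) and Igkc (ENSMUSG00000076609). Tnfrsf17, the receptor BCMA, had no row and was not analysed here.

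The libraries, 1 for each of 24 mice, were made from CD45+ cells bound to magnetic beads after digestion of EMT6-hHER2 tumors. EMT6-hHER2 is a clone of a murine breast cancer line that carries human HER2 from a transposon with a PGK promoter, and it was grown in the mammary fat pad of wild-type female Balb/c mice with an intact immune system (10 to 12 weeks old per the labels). The 4 groups of 6 mice shared the tumor and the enrichment and differed in the treatment given once tumors reached 80 mm3. They were no treatment, trastuzumab (20 mg/kg), the trastuzumab conjugate T-DM1 with a microtubule inhibitor (15 mg/kg) and T-PNU (1 mg/kg), which is trastuzumab linked to an anthracycline derivative, and tumors were taken on day 10. The doses differ between the 3 agents, so the comparisons between them are of these treatments as given. In the paper, tumors of the T-PNU cohort were smaller than 80 mm3 at harvest, and some T-PNU samples were low-responding. It describes the untreated, trastuzumab and T-DM1 tumors as non-responding. A high response is described only for T-PNU, so between groups response, and tumor size with it, cannot be told apart from treatment. Within the T-PNU group response differed between samples, and it was not compared with the values here.

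The values were log2 expression after normalization for library size, so that a difference of 1 is read as a doubling. The transformation is not named, and if values were shrunken toward a gene's mean, fold differences of low genes are understated. Counts were not among the values, and the depth behind each one is unknown. Ptprc, which encodes CD45, lay between 14.01 and 15.52 in the 24 samples, above 99.1% of genes by its mean. It was not even across groups, at 14.01 to 14.615 in T-DM1 mice and 14.748 to 15.522 in T-PNU mice. Untreated mice had 14.268 to 15.241 and trastuzumab mice 14.24 to 15.081. The part of the CD45 level in the differences of other genes between T-PNU and T-DM1 was not tested. Genes of non-immune cells were abundant as well, with Col1a2 (collagen) above 99.5% of genes and Krt8 (keratin) above 95.6%. Ms4a1 (CD20), which marks B cells, lay above 50.3% of genes and ranged from 6.45 to 11.49. The study's heatmaps lack 4 mice, B1 and C1 of the untreated group and E2 and B3 of the trastuzumab group. Since B1 and E2 held the highest values of several genes described here, results are given for all 24 samples and, where a call or a direction differs, for the 20 others. Across all genes, the share called in a comparison depended strongly on these 4 samples, and both shares stand beside each comparison. The paper compared samples by expression to find and remove possible outliers, and it names no reason for these 4. If expression decided, the differences and p-values of the 20 samples are not independent of that choice.

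Naive B cells carry IgM and IgD on their surface, and after activation some of them switch the heavy chain constant region to IgG, IgA or IgE. Plasma cells, their secreting descendants, lose IgD and most B cell surface proteins, induce Prdm1 and Xbp1 and expand the endoplasmic reticulum, where antibody chains are folded and assembled. In tumors, B cells and plasma cells are found among the infiltrating leukocytes and in lymphoid aggregates, while several of these genes are also used by other cells. Xbp1 serves the unfolded protein response in most cell types, Prdm1 is active in T cells and macrophages, and Sdc1 (syndecan-1) is a proteoglycan of epithelial and stromal cells.

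Per kilobase of exon (the log2 value minus the log2 of exon length in kilobases), Igkc was the most abundant of the 9 genes, with a median over samples of 13.05. Ighm followed at 11.40, Sdc1 at 10.74 and Xbp1 at 10.69, the last pair being nearly level. Ighd (8.98), Jchain (8.33), Prdm1 (7.46) and Mzb1 (7.27) were lower, and Derl3 was the least abundant at 3.60. The order of the antibody genes was not fixed from mouse to mouse, because Igkc alone ranged from 10.67 to 15.91 on this scale and so overlapped Ighm (10.21 to 12.87), Sdc1 (9.68 to 11.46) and Xbp1 (10.57 to 11.04).

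The most prominent feature of the antibody genes was their spread between mice of the same group. Jchain (chr5:88519809-88527891, GRCm38, minus strand) differed 41.1-fold between its highest and lowest sample, Igkc (chr6:70726435-70726966, plus strand) 37.7-fold and Ighd (chr12:113406604-113416324, minus strand) 28.8-fold. For the median gene this range was 1.83-fold. Mzb1 spanned 15.1-fold, Ighm (chr12:113418558-113422730, minus strand) 6.32-fold and Derl3 (chr10:75893413-75895941, plus strand) 3.57-fold. By the SD over samples, Ighd exceeded 99.965% of all genes, Igkc 99.9%, Jchain 99.8% and Mzb1 99.6%. In contrast, Xbp1 (chr11:5520659-5525893, plus strand) ranged only 1.39-fold and Prdm1 (chr10:44437177-44528501, minus strand) 1.94-fold. Sdc1 (chr12:8771323-8793715, plus strand) lay between them with a range of 3.42-fold.

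**Figure D1:**
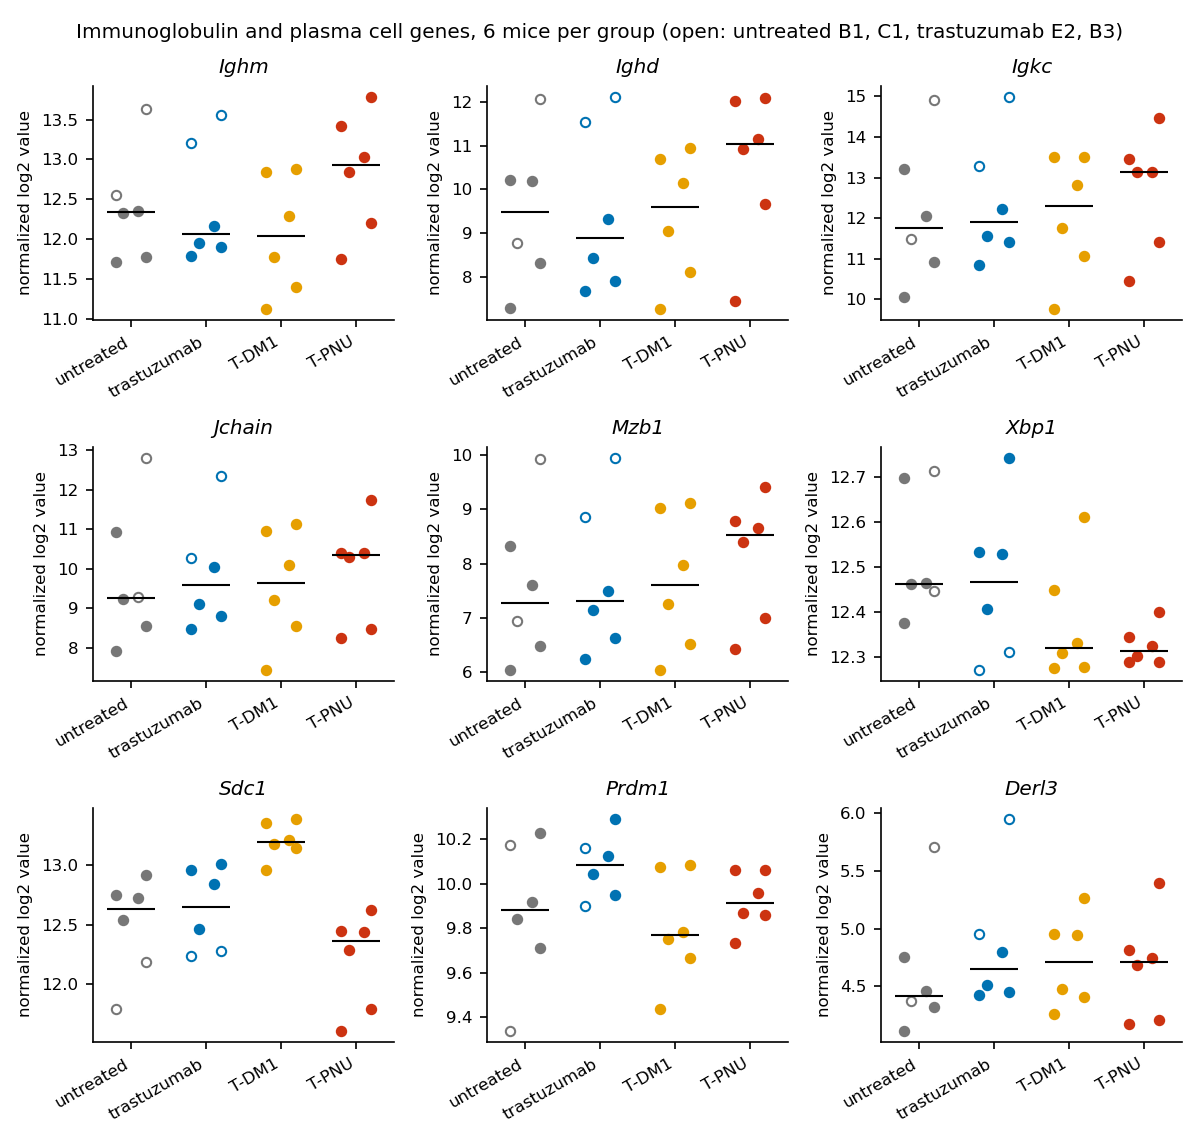
Normalized log2 values of the 9 genes with values (vertical axes, scaled separately for each gene) in the 4 groups of 6 mice; points are samples, lines are group medians, and open points are the 4 samples absent from the heatmaps. The antibody genes Igkc, Jchain and Ighd cover more than 3 log2 units within each group, and only Sdc1 in T-DM1 stands clear of the untreated and T-PNU groups.

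Igkc ran from 10.06 (A1) through a median of 11.77 to 14.92 (B1) in untreated mice, and from 10.83 (G2) through 11.89 to 15.00 (E2) in trastuzumab mice. In T-DM1 mice it ran from 9.76 (H3) through 12.29 to 13.51 (G3), and in T-PNU mice from 10.44 (G1) through 13.14 to 14.47 (C2). All 4 groups overlapped over most of their range, and each held at least 1 mouse with little kappa chain RNA and 1 with much. In the plot of values by group, B1 and E2 stand above the rest of their groups.

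Jchain showed the same order of mice within groups at its ends. Its values were 7.91 (A1), 9.26 and 12.81 (B1) as lowest, median and highest in untreated mice, and 8.48 (G2), 9.58 and 12.35 (E2) in trastuzumab mice. They were 7.44 (H3), 9.65 and 11.12 (G3) in T-DM1 mice and 8.24 (G1), 10.34 and 11.74 (C2) in T-PNU mice. Mzb1, a chaperone of B cells and plasma cells, was lowest in A1, G2, H3 and G1 of the 4 groups and highest in B1, E2, G3 and C2, the same mice as for Igkc and Jchain. Its group medians were 7.28, 7.31, 7.61 and 8.53 for untreated, trastuzumab, T-DM1 and T-PNU.

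Ighd, the IgD chain of naive B cells, ran from 7.29 (A1) to 12.06 (B1) around a median of 9.49 in untreated mice and from 7.69 (G2) to 12.12 (E2) around 8.88 in trastuzumab mice. In T-DM1 mice it ran from 7.27 (H3) to 10.95 (G3) around 9.60. In T-PNU mice the median was higher, at 11.04, and 5 of the 6 samples lay at 9.67 or above, whereas G1 was at 7.46. Ighm had medians of 12.35, 12.06, 12.04 and 12.93 in untreated, trastuzumab, T-DM1 and T-PNU mice, with a low of 11.13 in T-DM1 H3 and a high of 13.79 in T-PNU C2. Both IgM and IgD genes were thus highest by median in the T-PNU group, and the groups overlapped for both.

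None of Ighm, Ighd, Igkc, Jchain, Mzb1 and Derl3 was called in any of the 6 comparisons between groups (limma on all genes and all 24 samples, Benjamini-Hochberg adjusted p under 0.05). Between T-PNU and untreated mice, the difference in group means was 1.08 for Ighd (SE 0.92, 95% interval −0.84 to 2.999, adjusted p = 0.447), 0.57 for Igkc (SE 0.84, −1.18 to 2.32), 0.56 for Mzb1 (SE 0.71, −0.92 to 2.05), 0.44 for Ighm (SE 0.40, −0.39 to 1.27) and 0.14 for Jchain (SE 0.81, −1.55 to 1.82). These intervals reach from lower to more than 2-fold higher levels in T-PNU. Against T-DM1 mice, the differences of T-PNU were 1.18 for Ighd (SE 0.92) and 0.78 for Ighm (SE 0.40, −0.05 to 1.61, adjusted p = 0.135 by limma). Ighm was called when samples were weighted by their quality (0.79, adjusted p = 0.0402 by limma). Without weights 29.8% of all genes were called in this comparison, and the share with weights is not given here.

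**Figure D2:**
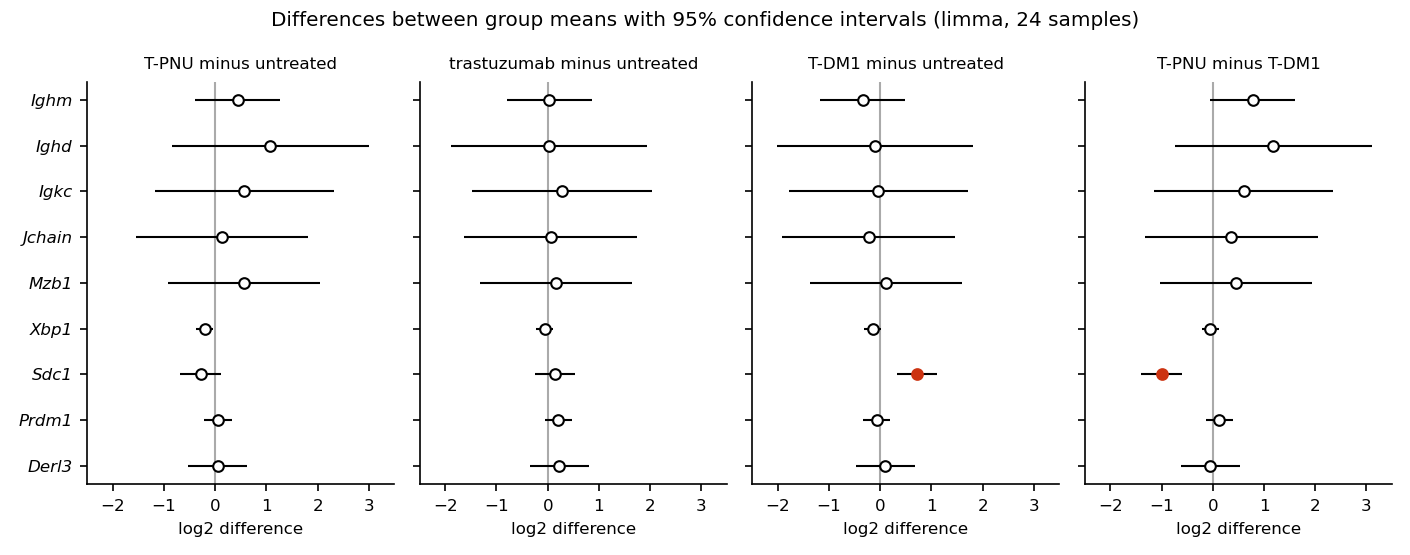
Differences between group means on the log2 scale (horizontal axes, points) with 95% confidence intervals (lines) from limma on 24 samples for the 9 genes in 4 comparisons; filled points have an adjusted p under 0.05. Only Sdc1 is filled, in the panels for T-DM1 minus untreated (0.72) and T-PNU minus T-DM1 (−1.0), and the intervals of Ighd, Igkc, Jchain and Mzb1 span more than 2 log2 units.

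Across the 9 genes, no call was made for T-PNU against untreated mice, where 0.188% of all genes were called. With an unadjusted limma p under 0.05 there was 1 such gene (Xbp1, difference −0.20), and the exact permutation test over samples also gave 1. The share of all genes at an unadjusted limma p under 0.05 is not given here, and the exact test was run on the listed genes only. Without the 4 samples the share of all genes called rose to 31.1%, and 1 of the 9 was called, Sdc1 at −0.53 (adjusted p = 0.0221 by limma). The median difference of the 9 genes was 0.14 with 24 samples and 0.76 with 20, beside 0.01 and 0.02 for all genes. Untreated B1, which is among the samples left out, was the highest untreated sample for 6 of the 9, namely Ighm, Ighd, Igkc, Jchain, Mzb1 and Derl3.

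For trastuzumab against untreated mice, 0.259% of all genes and none of the 9 were called with 24 samples, with 0 of the 9 at an unadjusted p under 0.05 by limma and 0 by the exact test. With 20 samples 0% of genes were called. The largest difference among the 9 was 0.28 for Igkc (SE 0.84). The direction for Ighm, Ighd, Igkc, Jchain and Mzb1 turned from higher to lower with 20 samples, at −0.09, −0.66, −0.05, −0.05 and −0.24.

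For T-PNU against trastuzumab mice, 0.00588% of all genes were called, which is 1 gene, and none of the 9 (1 at an unadjusted limma p under 0.05, 0 by the exact test). With 20 samples, 28% of genes and 2 of the 9 were called, Sdc1 at −0.61 (adjusted p = 0.0160) and Xbp1 at −0.23 (adjusted p = 0.0362). Ighd differed by 1.05 (SE 0.92) with 24 samples and by 2.21 (SE 0.85, adjusted p = 0.0578 by limma) with 20, the largest difference of any of the 9 genes in either fit. For T-DM1 against trastuzumab mice, 0.647% of all genes were called (0.812% with 20 samples) and none of the 9 in either fit, while 2 had an unadjusted p under 0.05 by limma and 2 by the exact test. These were Sdc1 (0.57, exact p = 0.00433) and Prdm1 (−0.28, exact p = 0.0390). The shares of all genes at these unadjusted thresholds are not given here, so these counts have no background beside them. Sdc1 was called by limma when samples were weighted (0.45, adjusted p = 0.0449) or when only these 2 groups were fitted (0.57, adjusted p = 0.0497). The shares of all genes called in the weighted fit and the fit of 2 groups are not given here. The comparisons share groups, so their differences are not independent of one another.

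The 6 genes Ighm, Ighd, Igkc, Jchain, Mzb1 and Derl3 rose and fell together from mouse to mouse. Over the 24 samples, the 15 pairs among them had Pearson r from 0.79 to 0.99 and Spearman rho from 0.77 to 0.99. Each of these pairs passed the permutation test (adjusted p = 2.4e-05 over the 36 pairs of the 9 genes, the smallest that 100000 resamples could give here). Without the 2 samples farthest from the median of the first gene of a pair, r ran from 0.73 to 0.98. Within groups, after subtraction of group means, r was 0.86 to 0.99, and with 20 samples 0.75 to 0.98. The closest pair was Igkc and Mzb1 (r = 0.99, rho = 0.99), and the loosest was Ighd and Derl3 (r = 0.79, rho = 0.78). Genes of 1 library share its normalization, and a larger number of cells of a type cannot be told apart from more RNA per cell in such bulk samples.

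Xbp1 and Prdm1 did not follow these genes. Xbp1 ran against Mzb1 (r = −0.60, rho = −0.59, adjusted permutation p = 0.00320 for r; −0.67 without the farthest 2 samples, −0.64 within groups) and against Ighd (r = −0.61, rho = −0.57, adjusted permutation p = 0.00301; −0.51 and −0.63). Prdm1 ran against Jchain (r = −0.55, rho = −0.52, adjusted permutation p = 0.00938; −0.60 and −0.65). Sdc1 ran against Ighm (r = −0.65, rho = −0.61, adjusted permutation p = 0.00130; −0.55 and −0.62). Among the 21 pairs that held at least 1 of Xbp1, Prdm1 and Sdc1, r went from −0.65 to 0.46, and 12 had an adjusted p under 0.05. In these libraries the 3 genes were thus lower or level, not higher, where antibody transcripts were high.

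**Figure D3:**
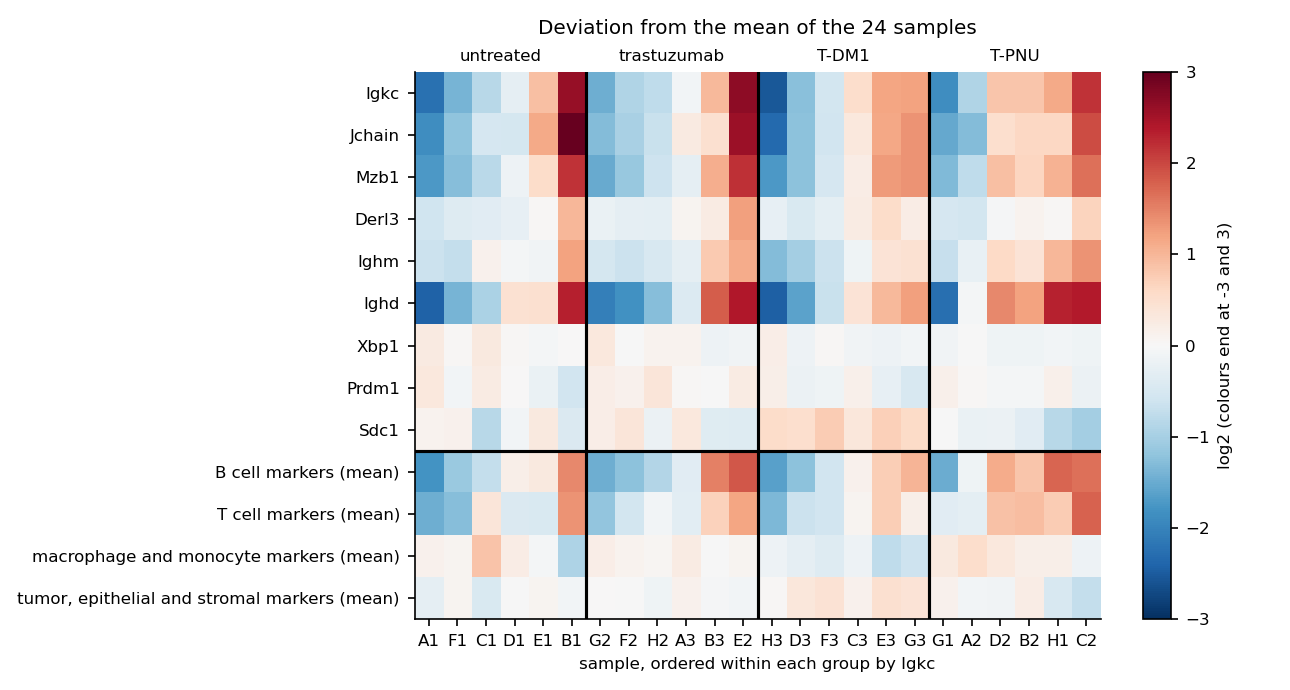
Deviation of each gene from its mean over the 24 samples on the log2 scale (colours, red higher and blue lower), with samples ordered within groups by Igkc; the lower 4 rows are means over marker lists. The 6 upper genes turn from blue to red together in all 4 groups, with the B cell and T cell markers, while Xbp1 and Prdm1 stay pale and Sdc1 is red across T-DM1.

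Markers of other lymphocytes moved with the antibody genes. The mean deviation of 16 B cell markers went from −1.78 (A1) to 1.43 (B1) in untreated mice, from −1.46 (G2) to 1.86 (E2) in trastuzumab mice, from −1.62 (H3) to 1.02 (G3) in T-DM1 mice and from −1.48 (G1) to 1.75 (H1) in T-PNU mice. The 10 T cell markers had the same lowest mice, A1 at −1.46, G2 at −1.18, H3 at −1.34 and G1 at −0.35, and their highest were B1 (1.36), E2 (1.19), E3 (0.73) and C2 (1.77). Genes of naive lymphocytes and lymph node homing, 7 in number, were again lowest in A1, G2, H3 and G1 and reached 1.72 in B1, 1.37 in E2, 1.06 in E3 and 2.03 in C2. No marker of these lists was at the bottom of the scale in the high samples; Ms4a1 was 11.08 in B1 and 11.16 in E2, against 6.45 in A1. The part that the number of lymphocytes, or lymphoid tissue in the sample, has in the spread of the antibody genes was not tested.

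The genes whose values over the 24 samples were most like those of each gene differed among the 6. For Ighd they included Fcer2a (CD23, r = 0.997) and Fcmr (the IgM receptor, 0.996), both B cell surface proteins. For Igkc they were Mzb1 (0.986), Jchain (0.982) and Ighg1 (0.970), for Jchain they were Igkc, the lambda variable gene Iglv1 (0.970) and Mzb1 (0.965), and for Derl3 they were the variable genes Ighv3-2 (0.934), Igkv10-96 (0.929) and Ighv3-1 (0.923). Mzb1 was followed most closely by Igkc, Dtx1 (0.974) and Tnfrsf13c (the BAFF receptor, 0.974), and Ighm by Sept6 (0.973), Grap (0.973) and Nemp2 (0.969). These are descriptions over 24 shared libraries, picked from all genes for their likeness.

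Jchain, which secreting cells use, and Ighd, which naive B cells use, were also compared within each sample, a difference looked at after their profiles had been seen. Jchain minus Ighd had a median of 0.56 in untreated mice (−0.95 in D1 to 0.74 in B1), 0.70 in trastuzumab mice (−1.28 in B3 to 0.90 in F2) and 0.17 in T-DM1 mice (−0.05 in C3 to 0.43 in D3). In T-PNU mice the median was −0.70, with −1.62 in H1, −1.19 in A2, −0.87 in D2, −0.54 in B2 and −0.36 in C2, but 0.78 in G1. Thus 5 of 6 T-PNU samples had less Jchain relative to Ighd than any T-DM1 sample, and the untreated and trastuzumab groups held 1 such sample each (D1 and B3). Igkc minus Ighd showed the same order, with a median of 2.10 in T-PNU mice against 2.73, 3.01 and 2.69 in untreated, trastuzumab and T-DM1 mice. No test was made of these differences because they were chosen from the data.

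The IgG genes spread even more than Igkc, whereas those of IgA and IgE spread less. Ighg2c spanned 93.9-fold over the 24 samples, Ighg1 66.7-fold, Ighg3 59.3-fold and Ighg2b 52.7-fold, all IgG subclasses. Igha, the IgA chain, spanned 5.24-fold, and Ighe, the IgE chain, 6.86-fold at low values of 3.77 to 6.55. Of the 11 further constant genes on the list, 9 had values, and none was called in any of the 6 comparisons by limma. Their median difference was 0.35 for T-PNU minus untreated, −0.02 for trastuzumab minus untreated, −0.05 for T-DM1 minus untreated and 0.26 for T-PNU minus T-DM1. With 20 samples the first 3 medians were 0.71, −0.27 and 0.29, so that the direction for T-DM1 minus untreated turned. At an unadjusted p under 0.05, limma counted 0 of the 9 in each of these comparisons, and no count model could be run on these values.

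The IgG subclasses were not mixed alike in all mice. Ighg1 was the highest of the 4 in every group by its median (10.71 in untreated, 11.48 in trastuzumab, 11.38 in T-DM1 and 12.01 in T-PNU mice). Ighg2c minus Ighg1 had group medians of −2.72, −3.44, −2.62 and −2.66 in that order. The 2 samples with the most antibody RNA lay at opposite ends, since the difference was −0.81 in untreated B1, the highest of all 24, and −4.63 in trastuzumab E2, the lowest of all 24. For Ighg3 minus Ighg1 the values of these samples were −2.56 and −6.46, again the ends of the range. Untreated B1 thus held much IgG2 and IgG3 RNA for its IgG1, and trastuzumab E2 little, although the treatment cannot be read from 1 mouse. Balb/c mice carry Ighg2a in place of the Ighg2c of the reference genome, so the reads at Ighg2c came from a related gene and its level is uncertain.

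Immunoglobulin variable genes are the segments from which each B cell builds its own receptor, so that RNA of 1 segment far above the rest can come from many copies of 1 rearrangement. The files held 171 of them, 87 heavy chain, 81 kappa and 3 lambda segments. Untreated B1 was the highest sample for 55 of them (32.2%), T-PNU C2 for 41 (23.98%) and trastuzumab E2 for 37 (21.6%), and no other sample for more than 9. For 9 of the 171 (5.26%), the highest sample exceeded the next by more than 2 on the log2 scale, and 10 of all 16996 genes did so (0.0588%), which leaves 1 gene outside these segments. Of the 9, 4 were led by B1, 4 by E2 and 1 by C2.

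The largest lead belonged to Ighv2-5 (chr12:113685482-113686045, GRCm38, minus strand), which was 10.61 in T-PNU C2 and 6.08 in the next sample, T-PNU B2, around a median of 3.17. Igkv8-18 (chr6:70355852-70356445, plus strand) was 9.41 in trastuzumab E2, 5.68 in the next sample and 2.90 by median. Igkv6-20 (chr6:70335841-70336507, minus strand) was 9.74 in untreated B1, 6.63 in the next and 4.99 by median. In fold terms these leads were 23.0, 13.3 and 8.64. The last 120 bases of these 3 segments are printed because they are the letters read next to the junction. They are GENCODE reference transcripts, which come from a C57BL/6 mouse. Capitals mark the last match to TANNANTGT, searched on the coding strand only, near the end of framework 3; 106 of 159 segments with a reference transcript (66.7%) hold that motif in their last 120 bases.
Ighv2-5: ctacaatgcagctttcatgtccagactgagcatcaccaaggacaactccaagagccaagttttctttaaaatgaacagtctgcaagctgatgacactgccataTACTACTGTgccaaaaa
Igkv8-18: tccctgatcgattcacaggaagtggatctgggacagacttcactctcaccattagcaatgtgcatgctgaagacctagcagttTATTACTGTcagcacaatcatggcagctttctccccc
Igkv6-20: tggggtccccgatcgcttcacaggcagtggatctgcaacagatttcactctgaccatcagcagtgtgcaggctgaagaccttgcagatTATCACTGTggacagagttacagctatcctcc

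The 2 kappa segments have close relatives in the reference. Igkv8-18 was 91.6% identical over its length to its nearest functional relative, Igkv8-26, and Igkv6-20 was 98.7% identical to Igkv6-29. Neither Igkv8-26 nor Igkv6-29 had values here. The reference transcript of Ighv2-5 has 480 bases, against 362 for Ighv2-9, so that an identity over the full length would count the extra bases, and none is given. The values of these segments may hold reads of a near copy, and Balb/c alleles may match a different reference segment. Across comparisons the 171 segments gave 1 call by limma with 24 samples, Igkv4-90 for T-PNU against T-DM1, where 29.8% of all genes were called (5 segments and 39.9% of genes with 20 samples). Igkv4-90 lay near the low end of the scale, from 2.18 to 3.06 over the 24 samples. With 20 samples, 17 segments were also called higher and 1 lower for T-PNU minus trastuzumab, where 28% of all genes were called. For T-PNU minus untreated 5 were called higher (31.1% of all genes), and for T-DM1 minus trastuzumab 1 was called lower (0.812%). The median difference of the 171 segments for T-PNU minus T-DM1 was 0.29, beside 0.03 for all genes.

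**Figure D4:**
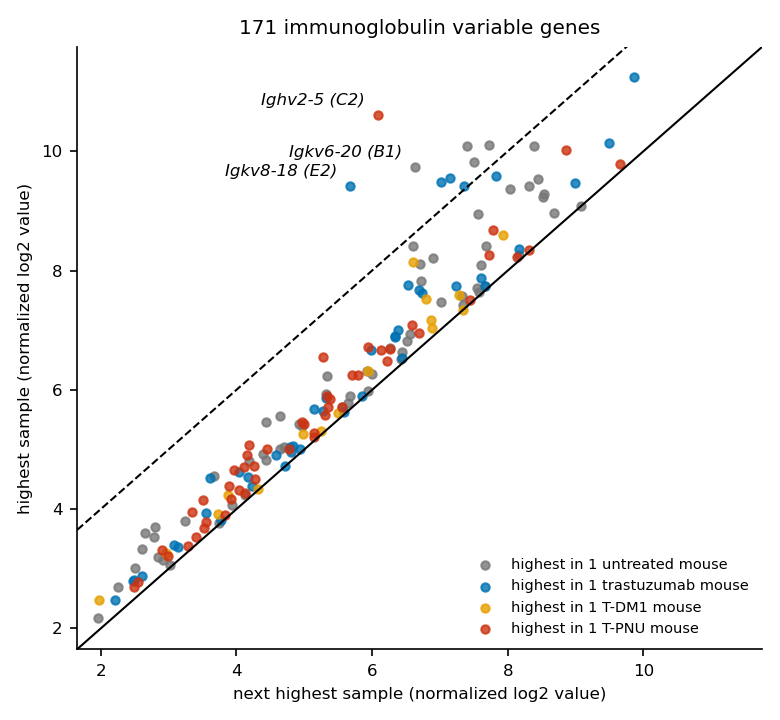
For each of 171 immunoglobulin variable genes, the value in its highest sample (vertical axis) against the value in its next highest sample (horizontal axis), both as normalized log2 values, coloured by the group of the highest mouse; the solid line marks equal values and the dashed line a lead of 2. The 9 genes above the dashed line peak in untreated B1, trastuzumab E2 or T-PNU C2, with Ighv2-5 at 10.61 against 6.08 as the largest lead.

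Derl3, which helps to export misfolded proteins from the endoplasmic reticulum and is abundant in plasma cells, was the lowest of the 9 genes. Its group medians were 4.42 in untreated, 4.65 in trastuzumab, 4.71 in T-DM1 and 4.72 in T-PNU mice, and its highest values were 5.95 in E2 and 5.71 in B1. It followed Jchain closely (r = 0.92, rho = 0.86, adjusted permutation p = 2.4e-05; 0.88 without the farthest 2 samples). Differences between groups were at most 0.23, with SE 0.27, and no comparison called it by limma, with exact permutation p from 0.478 to 0.859.

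Promoter letters were available for 6 of the 9 genes from RefSeq (GRCm38.p6), and 250 bases upstream of each start were searched on both strands. The endoplasmic reticulum stress response element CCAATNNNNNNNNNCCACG, a motif bound by factors of the unfolded protein response and chosen after the data had been seen, occurred in Derl3 and in 0.113% of 32851 promoters (37). It also occurred upstream of 6 of the secretory genes listed, namely Creld2, Dnajc3, Hsp90b1, Hspa5, Pdia6 and Syvn1. The octamer ATGCAAAT of B cell promoters (1.60% of all promoters) and the core TGACGTGG of the XBP1 element (0.563%) occurred upstream of none of the 6 genes, which says only that these letters are not in these windows. The Derl3 promoter (chr10:75893148-75893397, plus strand) is printed because it holds the match, in capitals and in reverse orientation, 156 to 138 bases before the start.
Derl3: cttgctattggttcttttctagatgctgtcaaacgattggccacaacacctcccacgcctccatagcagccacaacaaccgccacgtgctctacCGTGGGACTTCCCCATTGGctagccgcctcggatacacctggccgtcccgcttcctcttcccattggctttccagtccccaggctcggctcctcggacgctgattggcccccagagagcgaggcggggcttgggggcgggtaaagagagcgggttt

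The secretory genes, of which most did not hold this motif in the window searched, stayed near their means as a list. The 23 genes of secretion and folding in the endoplasmic reticulum had mean deviations between −0.15 (T-PNU C2) and 0.12 (T-DM1 H3) in all 24 samples. Hspa5, the chaperone BiP, lay between 16.08 and 16.63, above 99.9% of genes. Within groups, this list was lowest in B1, E2, E3 and C2, samples with high antibody genes, and highest in A1, G2, H3 and A2. The list thus did not rise with Igkc and Jchain in these libraries.

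Xbp1 was the least variable of the 9 genes and stood among the more abundant genes, above 92.5% of all genes by its mean. It ran from 12.38 (E1) through 12.46 to 12.71 (C1) in untreated mice, from 12.27 (B3) through 12.47 to 12.74 (G2) in trastuzumab mice, from 12.28 (E3) through 12.32 to 12.61 (H3) in T-DM1 mice and from 12.29 (B2) through 12.31 to 12.40 (A2) in T-PNU mice. T-PNU and untreated samples overlapped only between 12.38 and 12.40. The difference of −0.20 for T-PNU minus untreated (SE 0.08, 95% interval −0.36 to −0.04) had an exact permutation p of 0.00433 for this gene alone, and it did not pass adjustment over all genes (adjusted p = 0.127 by limma). The gene most like Xbp1 was Spcs2 (r = 0.890), a subunit of the signal peptidase of the same secretory pathway, followed by Gtf2h2 (0.874) and Ints12 (0.872).

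Prdm1, which encodes Blimp-1, had medians of 9.88 in untreated mice (9.34 in B1 to 10.23 in A1) and 10.08 in trastuzumab mice (9.90 in B3 to 10.29 in H2). They were 9.77 in T-DM1 mice (9.44 in G3 to 10.08 in H3) and 9.91 in T-PNU mice (9.74 in C2 to 10.06 in G1). The mice with the least Prdm1 in the untreated, T-DM1 and T-PNU groups were those with the most Igkc, so that Blimp-1 RNA and antibody RNA did not rise together there. The trastuzumab group differed, since E2 had the most Igkc and its Prdm1 of 10.16 lay above the group median. No comparison called it, and its largest difference was −0.28 for T-DM1 minus trastuzumab (SE 0.13, adjusted p = 0.291 by limma). Genes most like it were Rap2b (r = 0.904), Plek (0.897) and Marcks (0.872).

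Sdc1 was the only one of the 9 genes called with 24 samples, and it was higher in T-DM1 than in untreated and T-PNU mice. It ran from 11.80 (C1) through 12.63 to 12.91 (E1) in untreated mice and from 12.24 (E2) through 12.65 to 13.00 (F2) in trastuzumab mice. In T-DM1 mice it ran from 12.96 (C3) through 13.19 to 13.38 (F3), and in T-PNU mice from 11.61 (C2) through 12.36 to 12.62 (G1). All 6 T-DM1 samples lay above all untreated and all T-PNU samples, while trastuzumab F2 lay above the lowest T-DM1 sample.

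The mean of Sdc1 was 13.20 ± 0.15 (SD, n = 6) in T-DM1 and 12.48 ± 0.42 (SD, n = 6) in untreated mice, a difference of 0.72 (SE 0.19, adjusted p = 0.0277 by limma, exact permutation p = 0.00216, the smallest possible). In this comparison 6.27% of all genes were called, 4.11% higher and 2.15% lower in T-DM1. With 20 samples the difference was 0.47 (adjusted p = 0.132 by limma) and 2.01% of genes were called. Left out singly, the untreated samples with the lowest Sdc1, C1 and B1, gave 0.58 (adjusted p = 0.0683) and 0.66 (adjusted p = 0.0504), and the call was also lost without T-DM1 D3 (0.73, adjusted p = 0.0557), E3 (0.69, adjusted p = 0.0681) or F3 (0.68, adjusted p = 0.0701).

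In T-PNU the mean of Sdc1 was 12.20 ± 0.40 (SD, n = 6), which was lower than in T-DM1 by a log2 difference of −1.0 (SE 0.19, 95% interval −1.39 to −0.61, adjusted p = 0.00174 by limma). All 6 T-PNU samples were below all 6 T-DM1 samples (exact permutation p = 0.00216), and the difference of −1.0 kept an adjusted p of 0.000111 with 20 samples, which hold the same mice of these groups. Here 29.8% of all genes were called (39.9% with 20 samples), 12.4% higher and 17.4% lower in T-PNU, so that 1 of 9 genes called is below the share of all genes.

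Genes of stromal cells differed between groups in the direction of Sdc1, while the epithelial genes were split. Over the 24 samples its values were most like those of Nbl1 (r = 0.980), Tnfrsf12a (0.979) and Mxra8 (0.979). Of 11 tumor, epithelial and stromal markers, 2 were called higher in T-DM1 than in untreated mice, where 4.11% of all genes were called higher. These were Col1a1 (1.32, adjusted p = 0.0122) and Col3a1 (0.91, adjusted p = 0.0171, both by limma). Neither was called by limma with 20 samples, at 0.93 (adjusted p = 0.0808) and 0.57 (adjusted p = 0.120). Between T-PNU and T-DM1, 5 of the 11 were called lower, Col1a1 (−1.62), Pdgfrb (−1.57), Col3a1 (−1.38), Col1a2 (−1.36) and Krt8 (−0.96), where 17.4% of all genes were called lower. Another 2 were called higher, Epcam (0.84) and Pecam1 (0.72), a gene of endothelial cells, where 12.4% of all genes were called higher. Epcam, an epithelial gene, thus went against Sdc1 and Krt8.

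The mean deviation of the 11 markers was 0.04 to 0.47 in T-DM1 mice, −0.46 to 0.09 in untreated mice, −0.13 to 0.12 in trastuzumab mice and −0.72 to 0.22 in T-PNU mice. Pdgfrb, a receptor of fibroblasts and pericytes, was 11.42 to 11.90 in T-DM1 and 9.02 to 10.63 in T-PNU mice. Col1a1 was 13.64 to 14.46 against 11.49 to 12.93, and Krt8 was 13.166 to 13.766 against 11.687 to 13.115. None of these genes overlapped between the T-DM1 and T-PNU groups. The share of all genes without overlap is not given here, and 29.8% of all genes were called in this comparison. T-PNU C2 had the lowest Sdc1, Pdgfrb, Col1a1 and Krt8 of all 24 samples. How much of the Sdc1 RNA came from plasma cells and how much from stromal or tumor cells in the enriched fraction was not tested.

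**Figure D5:**
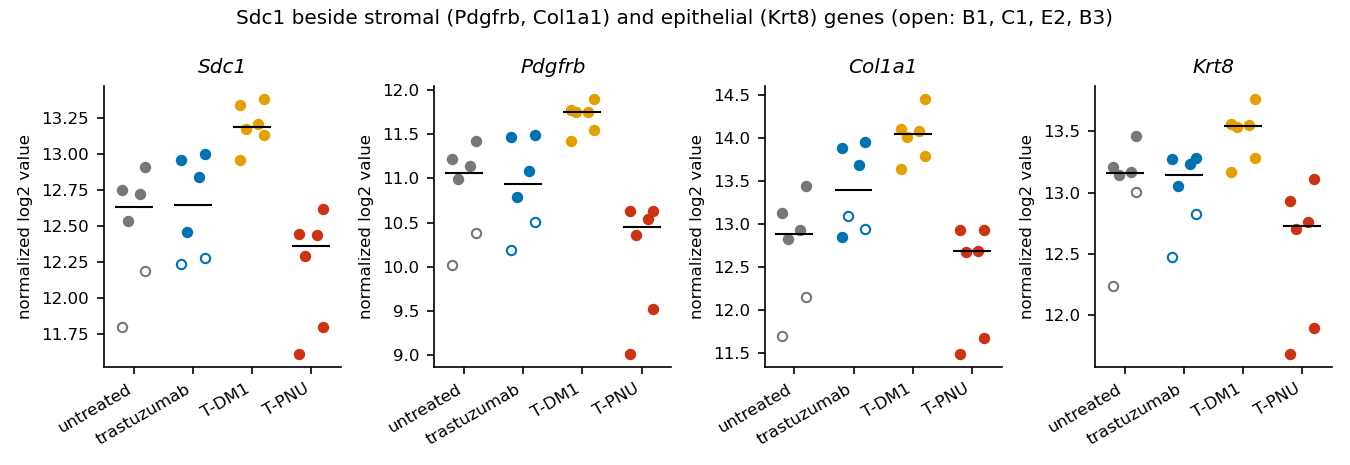
Normalized log2 values (vertical axes, scaled separately for each gene) of Sdc1, of the stromal genes Pdgfrb and Col1a1 and of the epithelial gene Krt8 in the 4 groups of 6 mice; points are samples, lines are group medians and open points are the 4 samples absent from the heatmaps. For Sdc1 the T-DM1 samples (12.96 to 13.38) lie above all T-PNU samples (11.61 to 12.62), and Pdgfrb, Col1a1 and Krt8 show the same separation. The epithelial gene Epcam, which differed in the other direction, is not shown.

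Other genes of the plasma cell pathway were described from a list of 18 regulators and receptors, 17 of which had values. For T-PNU minus T-DM1, 5 were called higher and none lower, where 12.4% of all genes were called higher and 17.4% lower. The median difference was 0.59, beside 0.03 for all genes. The 5 were Cd38 (1.02, SE 0.19, adjusted p = 0.00176 by limma), Cxcr4 (0.78), Slamf7 (0.59), Pou2f2 (0.51) and Tnfrsf13b (0.42). Cd38 encodes an ectoenzyme of several kinds of leukocytes, and Cxcr4 the receptor that guides plasma cells to bone marrow. Pou2f2 encodes the octamer factor Oct-2, and Tnfrsf13b the receptor TACI. For T-DM1 minus untreated, none was higher and 2 were lower, Cd38 (−0.73, adjusted p = 0.0295) and Tnfsf13b (−0.64, adjusted p = 0.0462), which encodes the B cell survival factor BAFF, where 2.15% of all genes were called lower. With 20 samples Cd38 was still called and Tnfsf13b was not (−0.67, adjusted p = 0.0597 by limma). In T-PNU minus untreated 0 of 17 were called by limma with 24 samples (0.188% of all genes) and 7 with 20 (31.1% of all genes). At an unadjusted limma p under 0.05 there were 4 with 24 samples, and the share of all genes at that threshold is not given here.

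Cd38 ran from 10.21 (E3) to 10.69 (C3) in T-DM1 mice and from 11.19 (C2) to 11.83 (H1) in T-PNU mice, with no overlap. The share of all genes without overlap is not given here, and 29.8% of all genes were called between these groups. Unlike Igkc, Cd38 was not high in untreated B1, whose value of 10.47 was the lowest untreated one. Macrophage markers differed in the same comparison, 5 of 8 being called higher in T-PNU than in T-DM1 (Adgre1 0.86, Mrc1 0.84, C1qb 0.83, Lyz2 0.73 and C1qa 0.72) and none lower, where 12.4% of all genes were called higher. Their part in the difference of Cd38, which myeloid cells also express, was not tested.

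Of the 23 secretory genes, 3 were called higher and 7 lower in T-PNU than in T-DM1, beside 12.4% and 17.4% of all genes, with a median difference of −0.02, beside 0.03 for all genes. The largest change was in Txndc5, a disulfide isomerase that is abundant in plasma cells and fibroblasts (−0.65, SE 0.15, adjusted p = 0.00414 by limma). Dnajb9 (0.39), a chaperone of the unfolded protein response, was the largest of the higher genes, followed by Sec11c (0.32) and Edem1 (0.24). For T-DM1 minus untreated, Sec11c was called lower (−0.34, adjusted p = 0.0149), but not with 20 samples (−0.28, adjusted p = 0.0778 by limma).

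Of the 16 B cell markers, 1 was called for T-PNU against T-DM1, Cd72 (0.51, adjusted p = 0.0141 by limma), where 29.8% of all genes were called, and none against untreated mice with 24 samples. Their median difference was 0.99 for T-PNU minus untreated, 0.93 for T-PNU minus T-DM1 and 0.04 for T-DM1 minus untreated, and all 16 were positive in the former 2. With 20 samples the medians against untreated mice were 1.41 for T-PNU, where 1 marker was called, and 0.39 for T-DM1. The wide spread between mice that was seen for Ighd and Igkc was shared by these markers, so that differences near 1 on the log2 scale did not pass the test. Plasmacytoid dendritic cells can also express Mzb1, and 10 of their markers were examined. For T-PNU minus T-DM1, Ccr9 was called higher (0.73) and Runx2 lower (−0.31), where 12.4% of all genes were called higher and 17.4% lower. Bst2 was called higher for T-DM1 minus untreated (0.64), where 4.11% of all genes were called higher. With 20 samples Bst2 was not called (0.63, adjusted p = 0.0684 by limma). The mean deviation of that list was at most 0.61, in trastuzumab E2, and the part of these cells in Mzb1 was not tested.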

How the data were processed

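RNA of CD45+ cells from 24 EMT6-hHER2 tumors was sequenced with a stranded mRNA kit, 1 library per mouse. Per the labels and the methods, the authors aligned reads to mm10 with STAR 2.4.2a, counted them per gene with featureCounts of Subread 1.5.0 in the reverse-stranded setting, removed genes with few counts on average and used DESeq2. The deposited values are log2 values normalized for library size, and the transformation is not named in the sources used here. They ran from 1.13 to 19.7 with sample medians of 8.73 to 8.87. Values shrunken toward a gene's mean would understate differences of low genes. Counts were not recovered, so the depth is unknown, no count model was run, and intervals cover the spread between mice only.

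Linear models for all genes were made in R 4.3.3 by the functions lmFit, contrasts.fit and eBayes (trend on) of limma 3.58.1, over the 4 groups without covariates, and p-values were adjusted by Benjamini-Hochberg over 16996 genes. A gene was called at an adjusted p under 0.05. Single genes were also compared by a two-sided exact permutation test over 924 arrangements. Correlations over samples used 100000 permutations and were adjusted over 36 pairs, since Tnfrsf17 had no values. The limma step was tested on simulated data. Python 3.11.15 with matplotlib 3.10.9 made the figures.

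Positions and exon lengths came from GENCODE M21 on GRCm38. Variable segments have near copies, and Balb/c alleles differ from the reference, so their counts are uncertain. The genes and lists were chosen with earlier results of these data known. All 10 listed genes were named in every comparison, with up to 4 called genes of each other list (more where all called genes of a list are counted out) and the 3 genes most like each listed gene, except 1 that is not reported here. The element of the endoplasmic reticulum stress response, the differences within samples and the leads of variable genes were chosen after their values were seen. The alternatives were 20 samples, quantile normalization, a filter on low values, fits of 2 groups, sample weights, a stricter threshold, the exact test and each replicate left out in turn. Of the 24 value columns, all were used. The numbers in the column names form a separate run for each group, and the wells follow the order of the groups. Neither can be told apart from the treatment in any comparison.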

Additional observations from a re-analysis of the deposited data

Results flagged for a closer look

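Within each group, the listed genes and the other antibody constant genes were examined for a sample far from the rest, in 72 groups of 6 samples. Chance marks about 1 such group in 20, and 2 were marked here. Derl3 in trastuzumab E2 was 5.95, against a group median of 4.65, and its gap to the next sample was 0.656 of the group's range. E2 also held the highest Igkc, Ighd and Mzb1 of all 24 samples. Igha in T-DM1 H3 was 7.06, against a group median of 7.99, with a gap of 0.768 of the range. H3 also had the lowest Ighm, Ighd, Igkc and Jchain of all 24 samples.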

How the results depend on the processing

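The calls rested on which samples entered and on the threshold. With 20 samples, 1 of the 9 genes was called for T-PNU minus untreated (Sdc1), 2 for T-PNU minus trastuzumab (Sdc1 and Xbp1) and 0 for T-DM1 minus untreated. With sample weights, 2 were called for T-PNU minus T-DM1 (Sdc1 and Ighm) and 1 for T-DM1 minus trastuzumab (Sdc1), as in a fit of only those 2 groups (1). The shares of all genes called in the weighted fit and the fit of 2 groups are not given here. The exact permutation test counted 1 for T-PNU minus untreated and 2 for T-DM1 minus trastuzumab, and it was not run on all genes. At an adjusted p under 0.01 with a fold change above 2, the count was 0 for T-DM1 minus untreated and for T-PNU minus T-DM1. With each replicate left out in turn, it ran from 0 to 1 for T-DM1 minus untreated, 0 without untreated B1 or C1 or T-DM1 D3, E3 or F3. Of the 36 pairs of genes, 27 were correlated at an adjusted p under 0.05, 28 with 20 samples and 33 with group means removed. The unknown depth leaves no counting error for any value, and the causes of these changes were not tested beyond the smaller number of samples that some settings hold.

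Of 1296 log2 differences with 1 replicate left out, 76 changed sign, 5 lost their call and none gained one, and of 258 under the other alternatives, 29 changed sign, 1 lost its call and 6 gained one. No difference that changed sign was called. With 20 samples, the values of the changed sign were −0.00013 for Prdm1 in T-PNU minus untreated and 0.13 for Derl3 in T-PNU minus trastuzumab. In trastuzumab minus untreated they were −0.090 for Ighm, −0.66 for Ighd, −0.055 for Igkc, −0.047 for Jchain, −0.24 for Mzb1 and 0.053 for Xbp1. In T-DM1 minus untreated they were 0.011 for Ighm, 0.37 for Ighd, 0.51 for Igkc and 0.40 for Jchain, and in T-DM1 minus trastuzumab 0.10 for Ighm, 1.03 for Ighd, 0.56 for Igkc, 0.45 for Jchain, 0.79 for Mzb1 and 0.17 for Derl3. With sample weights they were −0.42 for Ighd, −0.0096 for Mzb1 and 0.0082 for Xbp1 in trastuzumab minus untreated, 0.26 for Igkc and 0.18 for Jchain in T-DM1 minus untreated, 0.0034 for Derl3 in T-PNU minus T-DM1, and 0.41 for Ighd, 0.12 for Igkc, 0.097 for Jchain and 0.28 for Mzb1 in T-DM1 minus trastuzumab. Quantile normalization gave −0.035 for Derl3 in T-PNU minus untreated.

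Leaving out replicates singly, the ranges that crossed 0 were as follows. In T-PNU minus untreated they were −0.24 to 0.74 for Jchain, −0.050 to 0.13 for Prdm1 and −0.094 to 0.27 for Derl3. In trastuzumab minus untreated they were −0.19 to 0.28 for Ighm, −0.49 to 0.55 for Ighd, −0.24 to 0.84 for Igkc, −0.44 to 0.66 for Jchain and −0.28 to 0.64 for Mzb1. In T-DM1 minus untreated they were −0.54 to 0.41 for Ighd, −0.45 to 0.53 for Igkc, −0.60 to 0.37 for Jchain, −0.20 to 0.58 for Mzb1, −0.18 to 0.0027 for Prdm1 and −0.011 to 0.32 for Derl3. In T-PNU minus trastuzumab they were −0.066 to 0.81 for Igkc, −0.28 to 0.58 for Jchain and −0.32 to 0.045 for Derl3, and in T-PNU minus T-DM1 −0.059 to 0.70 for Jchain and −0.19 to 0.061 for Derl3. In T-DM1 minus trastuzumab they were −0.49 to 0.39 for Ighd, −0.62 to 0.21 for Igkc, −0.60 to 0.22 for Jchain, −0.36 to 0.39 for Mzb1 and −0.24 to 0.093 for Derl3. No paired analysis was possible because the labels give no replicate numbers that groups share.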
